A study of Mus musculus with 4 samples.

Results

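Heat shock chaperones of the cytosol and of the mitochondrial matrix were described here as transcripts carried by exosomes, the small vesicles that cultured cells release into their medium. The 8 genes were Hsp90aa1, Hsp90ab1, Hspa8, Hspa4, Hspb1, Hspa9, Hspd1 and Hspe1, taken by symbol from a deposited table of 42977 rat genes. All 8 were found, and 7 passed the filter on low counts, against 33480 genes in the whole table. Hsp90aa1 did not pass, because it stood at 0 in every library.

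The vesicles came from bone marrow mesenchymal stem cells (MSCs), adherent stromal cells that can form bone, fat and cartilage cells. The donors were male SD rats aged 6 to 8 weeks, and the cells were used at passages 3 to 4. Cells of the MSC-Exo group (2 libraries) received the solvent DMSO, and cells of the MSCATV-Exo group (2 libraries) received 1 µmol/L atorvastatin (ATV), a statin that blocks the rate-limiting step of cholesterol synthesis. The sample characteristics give 24 hours of treatment and the treatment protocol gives 48 hours, so the length is uncertain. The deposited records register the samples as mouse, while the growth protocol, the build and the gene positions are of rat. Below, the MSC-Exo pair is also called the DMSO libraries and the MSCATV-Exo pair the ATV libraries. Nothing in the labels says that the libraries of a group came from different cultures or animals, so the spread between them may be technical. Every SD below is the spread of the 2 libraries of a group. The SE and p-values of the tests run here also draw on the spread of other genes between these same libraries.

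Chaperones bind unfolded or partly folded proteins and help them reach or keep their working shape. HSP70 proteins bind short exposed stretches of a chain, HSP90 proteins act on nearly folded clients such as kinases and steroid receptors, and small heat shock proteins hold unfolded proteins in solution. In the mitochondrial matrix, mortalin helps pull proteins in through the membrane, and a barrel made of HSP60 and capped by HSP10 encloses them while they fold. Several of these proteins, HSC70 and HSP90 above all, are regularly found in exosome preparations.

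Counted reads per library were 5350295 and 5355098 for the DMSO pair and 5947020 and 5598378 for the ATV pair. Levels are given in RPKM, reads scaled by gene length and by the library total, as the authors deposited them. Olfactory receptor genes, which MSCs are not known to use, gave a reference for signal that need not follow expression: the median of 1458 such genes was 1.97, 1.79, 1.06 and 1.82 RPKM in the 4 libraries in that order, lowest in MSCATV-Exo replicate 1. All 12 MSC markers looked for were found. Together they summed to 315 and 341 RPKM in the DMSO libraries and 338 and 352 in the ATV libraries. Vim was highest at a mean of 207, but Col1a2, a defining collagen, stood at 0 in all 4 libraries. The median of the MSC markers was 3.10 and 5.30 times the olfactory receptor median in the DMSO libraries and 6.09 and 2.87 times in the ATV libraries. The 12 leukocyte markers summed to 59.5 and 65.5 against 41.1 and 40.3 RPKM, and none of them stood at 0 throughout. Their medians were 2.52 and 3.57 times the olfactory receptor median in the DMSO libraries and 2.48 and 1.26 times in the ATV libraries. Medians of the erythroid and platelet, endothelial, adipocyte and osteoblast lists lay between 1.04 and 4.73 times that reference, and no gene of these lists stood at 0 in all libraries. The MSC median was above those of these lists and of the leukocyte list in each library but MSCATV-Exo replicate 2. There the adipocyte and osteoblast medians were higher, at 3.24 and 3.11 times the reference. The 6 exosome markers summed to 43.7 and 41.4 RPKM in the DMSO libraries and 45.5 and 56.4 in the ATV libraries, without overlap. The highest of them, Cd63, averaged 17.5 RPKM. All 6 had a positive log2 fold change, beside 49.4% of all genes tested and 64.6% of protein-coding genes with a mean of at least 9.22 RPKM. Of the tested markers, 4 of 11 for MSCs, 2 of 11 for leukocytes and 1 of 4 for erythroid cells and platelets were positive. For endothelial cells, adipocytes and osteoblasts the counts were 3 of 6, 2 of 5 and 3 of 5. The part of these cells, of vesicle content or of background reads in the chaperone values was not tested. Values scaled to each library's total give the make-up of its RNA. They show neither the number of vesicles nor the amount of a transcript per vesicle.

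Of the chaperone genes, 3 cytosolic ones had the highest mean levels. Hsp90ab1, Hspa8 and Hspb1 averaged 34.3, 30.6 and 23.9 RPKM over the 4 libraries. Hspe1, Hspa9, Hspd1 and Hspa4 followed at 13.8, 11.5, 10.9 and 9.22 RPKM. The median of all protein-coding genes was 4.74 and 4.70 RPKM in the DMSO libraries and 4.12 and 4.54 in the ATV libraries, above the olfactory receptor medians. Cryaa, a crystallin gene of the lens, averaged 10.1 RPKM, more than Hspa4. Among these 7 genes, ranges of neighbours did not overlap only at the step from Hspb1 to Hspe1. Hsp90ab1 was above Hspa8 in 3 of 4 libraries, Hspa8 above Hspb1 in 3, Hspe1 above Hspa9 in 3, Hspa9 above Hspd1 in 3 and Hspd1 above Hspa4 in 2. These neighbours thus did not differ in level beyond their spread. That step was narrow: the lowest value of Hspb1 was 18.9 RPKM (MSCATV-Exo replicate 2) and the highest of Hspe1 18.1 RPKM (MSC-Exo replicate 2). The 3 genes above it were cytosolic, and those below it were the 3 mitochondrial genes and Hspa4.

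**Figure D1:**
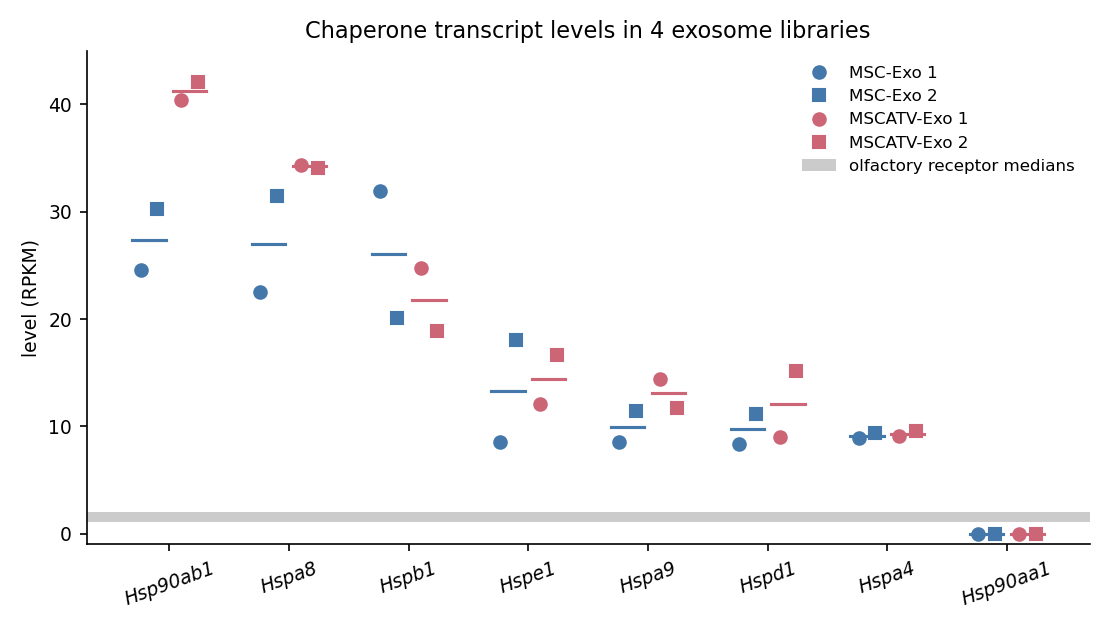
Level in RPKM (linear axis) of each chaperone gene in each of the 4 libraries, with circles for replicate 1, squares for replicate 2, blue for MSC-Exo, red for MSCATV-Exo, a horizontal bar for each group mean and a grey band for the olfactory receptor medians (1.06 to 1.97 RPKM). The points of 7 genes lie above the band in every library and Hsp90aa1 lies at 0.

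Hsp90ab1 encodes HSP90-beta, the constitutive cytosolic HSP90 (chromosome 9, 17817791 to 17823163, plus strand, build rn6). It had 307 and 379 counts in the DMSO libraries and 562 and 551 in the ATV libraries, or 55.3 and 69.2 against 103 and 98.2 CPM, counts scaled to a common library total. Both MSCATV-Exo libraries lay above both MSC-Exo libraries, and the gap between the groups was wider than the gap within either. The group means were 62.2 ± 9.84 and 101 ± 3.26 CPM (SD, n = 2), a ratio of 1.62 and a log2 fold change of 0.69 ± 0.26 (SE). These values are of the gene's own row. Counts with the rows described as its copies added, which overlapped between the groups, are treated below. With edgeR's quasi-likelihood test its p was 0.0222 before adjustment over all genes and 1.00 after it, and DESeq2 gave an adjusted p of 0.134. Its level was 12.4 and 16.9 times the olfactory receptor median in the DMSO libraries and 38.1 and 23.2 times in the ATV libraries, and it ranked at or above percentile 98.8 of protein-coding genes in each library.

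Hspa8 encodes HSC70, the constitutive cytosolic HSP70, which also takes part in sorting proteins into vesicles and lysosomes (chromosome 8, 44989401 to 44993261, plus strand). Its counts were 253 and 354 in the DMSO libraries and 429 and 401 in the ATV libraries, or 45.6 and 64.6 against 78.5 and 71.5 CPM. The groups did not overlap, but MSC-Exo replicate 2 lay closer to the MSCATV-Exo libraries than to its own replicate. The log2 fold change was 0.45 ± 0.28 (SE; edgeR p before adjustment 0.148), 0.21 without MSC-Exo replicate 1 and 0.72 without MSC-Exo replicate 2.

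Hspa4 encodes an HSP110-type protein that drives nucleotide exchange on HSP70 (chromosome 10, 38601624 to 38642397, minus strand). It was the steadiest of the 7 genes, with 215, 226, 244 and 242 counts and 8.89, 9.34, 9.08 and 9.56 RPKM. In RPKM the groups overlapped, and in CPM (38.7 and 41.3 against 44.7 and 43.2) they did not. Its log2 fold change was 0.13 ± 0.30 (SE; edgeR p before adjustment 0.658) and 0.03 when libraries were scaled by their totals alone.

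Hspb1 encodes the small heat shock protein HSP27 (chromosome 12, 23839390 to 23841051, minus strand). With 152 and 96 counts in the DMSO libraries and 131 and 94 in the ATV libraries, or 27.4 and 17.5 against 24.0 and 16.8 CPM, it was the 1 gene of the 7 with a lower mean in the ATV libraries. The groups overlapped, and the difference between replicates of a group was larger than that between groups. The log2 fold change of -0.14 ± 0.43 (SE; edgeR p before adjustment 0.751) was 0.21 without MSC-Exo replicate 1 and 0.10 without MSCATV-Exo replicate 2.

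Hspa9 encodes mortalin, the HSP70 of the mitochondrial matrix (chromosome 18, 27731072 to 27749235, minus strand). It had 129 and 173 counts in the DMSO libraries and 243 and 186 in the ATV libraries, or 23.2 and 31.6 against 44.5 and 33.2 CPM. The groups did not overlap, although MSC-Exo replicate 2 and MSCATV-Exo replicate 2 were close. The log2 fold change was 0.50 ± 0.35 (SE; edgeR p before adjustment 0.177), and it was 0.28 without MSCATV-Exo replicate 1.

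Hspd1 and Hspe1 encode HSP60 and HSP10, the 2 parts of the mitochondrial folding chamber. They lie head to head on chromosome 9, Hspd1 on the minus strand from 61680529 to 61691202 and Hspe1 on the plus strand from 61691246 to 61724948, with 43 bases between them. The library kit did not mark strand, so reads near that junction cannot be assigned to a strand. Hspd1 had 104 and 139 counts in the DMSO libraries and 124 and 197 in the ATV libraries, or 18.7 and 25.4 against 22.7 and 35.1 CPM. Hspe1, whose counted length is only 569 bases, had 26 and 55 against 41 and 53 counts, or 4.68 and 10.0 against 7.504 and 9.45 CPM. The groups overlapped for both genes. In both groups replicate 2 exceeded replicate 1 for both genes. The log2 fold changes were 0.39 ± 0.40 for Hspd1 and 0.20 ± 0.75 for Hspe1 (SE; edgeR p before adjustment 0.348 and 0.790). Without MSC-Exo replicate 1 the value for Hspe1 was -0.25, and without MSCATV-Exo replicate 2 that for Hspd1 was 0.05. Per length, Hspe1 stood at 1.02, 1.61, 1.35 and 1.10 times Hspd1 in the 4 libraries.

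No chaperone gene passed the main test, and neither did any other gene. With edgeR 0 of 33480 genes (0%) had an adjusted p under 0.05, and 0 of the 7 chaperone genes did. Before adjustment 1236 genes (3.69%) had a p under 0.05, and 1 of the 7, Hsp90ab1. DESeq2 called 106 of 32181 genes (0.329%) and none of the 7. Before adjustment its p was under 0.05 for 8.03% of genes and for 1 of the 7, again Hsp90ab1. The authors' deposited table, whose test is not given in the sources used here, listed 3 of the 7 with a q-value under 0.05 and higher in the ATV libraries: Hsp90ab1 (q-value 1.19e-07), Hspa8 (0.00834) and Hspa9 (0.0332). Of all genes in the authors' deposited table, 12.4% were listed that way and 34.3% in either direction. Of 1875 protein-coding genes with a mean of at least 9.22 RPKM, the authors' q-value was under 0.05 in either direction for 713. Before adjustment the edgeR p was under 0.05 for 122 of these 1875 genes and the DESeq2 p for 235.

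Of the 7 genes, 6 had a positive log2 fold change, with a median of 0.39, beside 49.4% and a median of -0.01 over all genes tested. Scaling by library totals alone moved the median of all genes to -0.11 and that of the 7 to 0.30. Positive values were also more frequent among abundant genes in general: of 1875 protein-coding genes with a mean of at least 9.22 RPKM, the level of Hspa4, 64.6% had a positive log2 fold change and the median was 0.16. The groups did not overlap in CPM, with MSCATV-Exo higher, for 4 of the 7 (Hsp90ab1, Hspa8, Hspa4 and Hspa9), for 16.1% of all genes tested and for 25.9% of those abundant coding genes. With so few genes, chosen with earlier results known, these shares describe the 7 genes only.

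**Figure D2:**
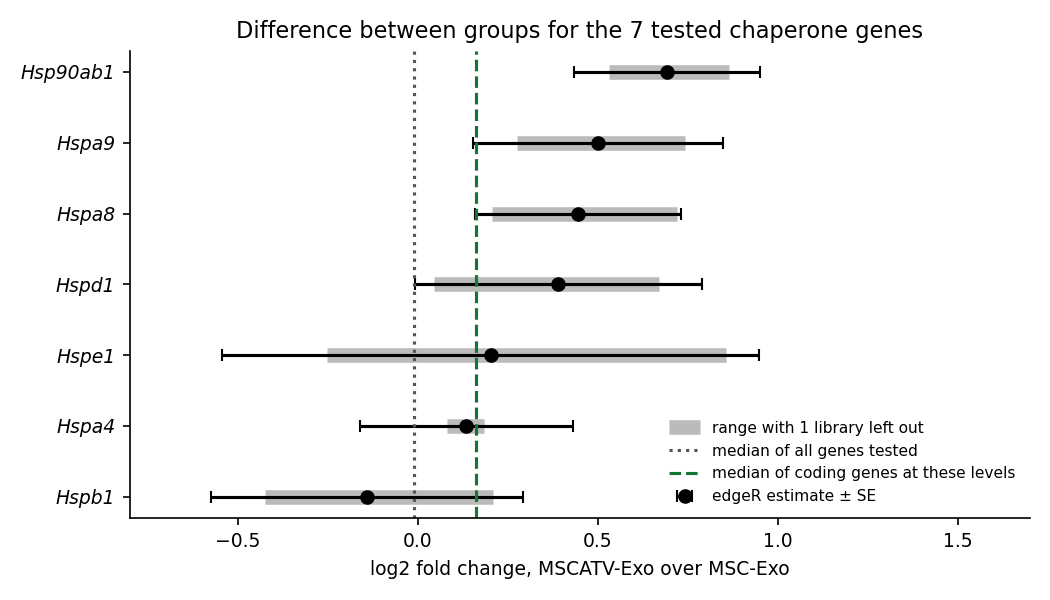
Log2 fold change of MSCATV-Exo over MSC-Exo for the 7 tested chaperone genes, as the edgeR estimate (points) with its SE (bars) and, in grey, the range when 1 library at a time was left out. The dotted line is the median of all genes tested (-0.01) and the dashed line that of coding genes with a mean of at least 9.22 RPKM (0.16). The grey range of Hsp90ab1 runs from 0.53 to 0.86, and those of Hspb1 and Hspe1 cross 0.

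MSC-Exo replicate 1 stood apart for these genes. It had the lowest CPM of the 4 libraries for 6 of the 7 and the highest for the other one, Hspb1. Over all genes tested it was the lowest library for 24.7%, beside 22.3% for MSC-Exo replicate 2, 28.5% for MSCATV-Exo replicate 1 and 24.4% for MSCATV-Exo replicate 2. Over the abundant coding genes these shares were 37.3%, 23.7%, 18.5% and 20.5%, and over the 7 chaperone genes 85.7%, 0%, 0% and 14.3%. Leaving it out brought the median log2 fold change of the 7 to 0.21 and the value of Hsp90ab1 to 0.53. The median was lower still, at 0.16, without MSCATV-Exo replicate 2, where Hsp90ab1 was at 0.73. It was 0.36 without MSCATV-Exo replicate 1 and 0.72 without MSC-Exo replicate 2. Whether MSC-Exo replicate 1 was low for a technical reason was not tested.

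Within a library the make-up of the chaperone signal needs no scaling between libraries. Of the RPKM summed over the 8 genes, Hsp90ab1 held 21.7% and 23.0% in the DMSO libraries and 28.0% and 28.4% in the ATV libraries. Its share did not overlap between groups, and the replicates of MSCATV-Exo were within a percentage point of each other. The share of Hspa4 was 7.85% and 7.08% in the DMSO libraries and 6.30% and 6.45% in the ATV libraries, also without overlap but in the other direction. Its own RPKM overlapped between the groups, while the sum that the share is taken of was higher in both ATV libraries. Shares of the other 5 measured genes overlapped, and that of Hspb1 was widest, at 28.2% and 15.3% against 17.2% and 12.7%. Per length, Hsp90ab1 stood at 1.09 and 0.962 times Hspa8 in the DMSO libraries and at 1.18 and 1.23 times in the ATV libraries. The 3 mitochondrial genes together had 0.289 and 0.445 times the level of the cytosolic genes in the DMSO libraries and 0.327 and 0.416 times in the ATV libraries, with overlap. Summed over the 8 genes the level was 113 and 132 RPKM in the DMSO libraries and 144 and 148 in the ATV libraries. With 2 libraries against 2, an exact two-sided permutation test of any such value cannot go below p = 0.333, so none was run.

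**Figure D3:**
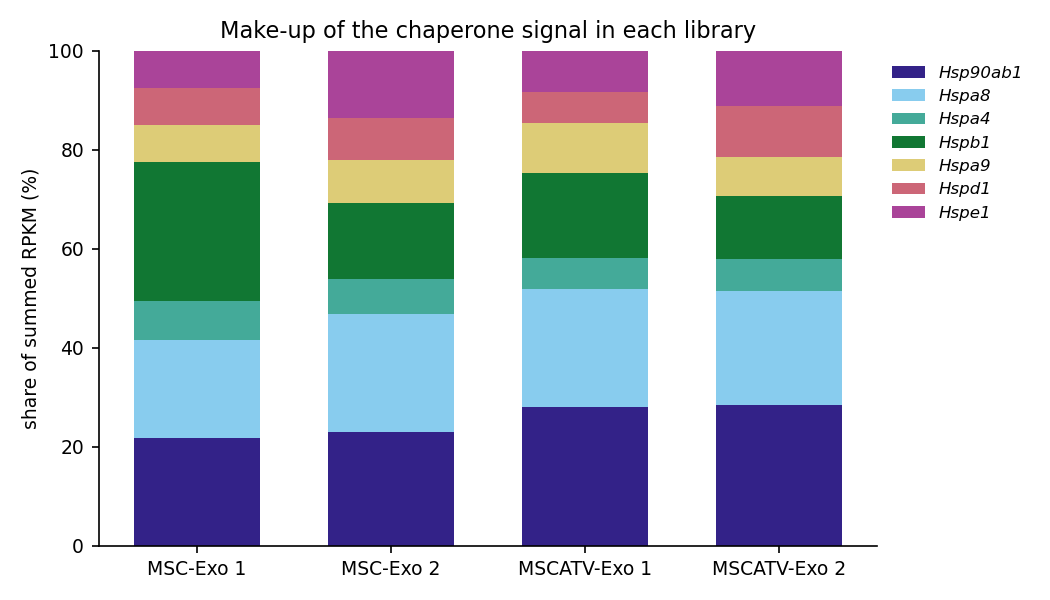
Share of the summed RPKM of the chaperone genes (percent, stacked to 100) held by each of the 7 measured genes in each library. The dark blue Hsp90ab1 segment is 21.7% and 23.0% in the DMSO libraries and 28.0% and 28.4% in the ATV libraries, and the green Hspb1 segment is widest in MSC-Exo replicate 1 (28.2%).

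Hsp90aa1, which encodes HSP90-alpha, the stress-inducible cytosolic HSP90, had no counts at all (chromosome 6, 135107262 to 135112793, minus strand, counted length 2785 bases). The limit that such a count allows is 3 reads, or 0.201, 0.201, 0.181 and 0.192 RPKM in the 4 libraries, which covers counting error alone. A gene of that length at the olfactory receptor median would have had 29.4, 26.7, 17.6 and 28.3 counts. The row thus lay below the median of genes that MSCs are not known to use. Of those 1458 genes, taken at any length, 309 (21.2%) also stood at 0 in all 4 libraries. Of 13325 protein-coding genes of at least 2000 bases, 317 (2.38%) stood at 0 in all 4 libraries, Hsp90aa1 among them. A second row described as HSP90-alpha, LOC103692716, lies 56844 bases away on the same strand (135044833 to 135050417) and had 0 and 20 counts in the DMSO libraries and 0 and 9 in the ATV libraries. How reads that match several places were counted is not given in the sources used here, so neither row can be read as the level of HSP90-alpha transcript.

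The stress-inducible HSP70 gene Hspa1a, which is outside the 8 genes and was chosen after its values were seen, was also near 0. It had 4, 7, 0 and 2 counts, while its second row, LOC108348108, and the 1A/1B-like pseudogene LOC103694387 stood at 0 throughout. Hspa1b was not found under that symbol. Hspa1l, a related HSP70 gene whose span starts inside that of Hspa1a on the other strand, had 106, 108, 131 and 113 counts. These counts cannot be split by strand where the spans overlap.

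The other chaperone genes differed in how many copies the table lists, mostly pseudogenes. By description 26 rows were copies of Hsp90ab1, 33 of Hspa8, 18 of Hspd1, 14 of Hsp90aa1, 3 of Hspa9 and 2 of Hspe1, and none was found for Hspa4 or Hspb1. Over all 26 Hsp90ab1 copies there were 1148 and 1348 counts in the DMSO libraries and 942 and 1004 in the ATV libraries. Hsp90ab1 itself had 307 and 379 against 562 and 551 counts, higher in the ATV libraries. In the ATV libraries the copies were lower by more counts than the gene was higher. With the gene and its copies added, the counts of the groups overlapped and the DMSO mean was the higher. Whether reads were divided differently between gene and copies in the 2 groups was not tested. Pooled over their length the copies stood at 3.86 and 4.53 against 2.85 and 3.23 RPKM, far under the 24.5 to 42.1 RPKM of the gene. In RPKM the groups did not overlap for either, and they lay in opposite order. Relative to the olfactory receptor median the copies stood at 1.95 and 2.53 times in the DMSO libraries and 2.69 and 1.78 times in the ATV libraries, with overlap, so that order depended on the scale. The 33 Hspa8 copies pooled to 3.44 and 2.94 against 3.27 and 2.72 RPKM, with overlap. Those of Hspd1 stood at 2.44 and 1.77 against 0.941 and 1.81 RPKM, with overlap. Those of Hsp90aa1 stood at 1.99 and 1.99 against 1.51 and 1.75 RPKM, without overlap, and at 1.01 and 1.11 against 1.42 and 0.967 times the olfactory receptor median, with overlap.

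Single copies reached higher levels. LOC307084, a copy of Hspa8, averaged 9.89 RPKM but ranged from 3.75 to 15.5 within MSCATV-Exo alone. The Hsp90ab1 copies LOC363224, LOC361966 and LOC102554179 averaged 8.24, 7.82 and 7.44 RPKM, and LOC688655, a copy of Hspa8, averaged 6.88. LOC363224 had 126 and 152 counts in the DMSO libraries and 70 and 87 in the ATV libraries (log2 fold change -0.83 ± 0.42, SE; edgeR p before adjustment 0.0766). Neither edgeR nor DESeq2 called any tested copy. The 2 Hspe1 copies had 18 and 6 counts in the DMSO libraries and 16 and 42 in the ATV libraries. Hspe1 itself had 26 and 55 against 41 and 53. The 3 Hspa9 copies had 14 and 10 against 0 and 0 counts. Reads shared between a gene and its copies may have been assigned to either. The counts of Hsp90ab1, Hspa8, Hspd1, Hspe1 and Hspa9 thus carry an uncertainty that Hspa4 and Hspb1, with no copies found, do not show.

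**Figure D4:**
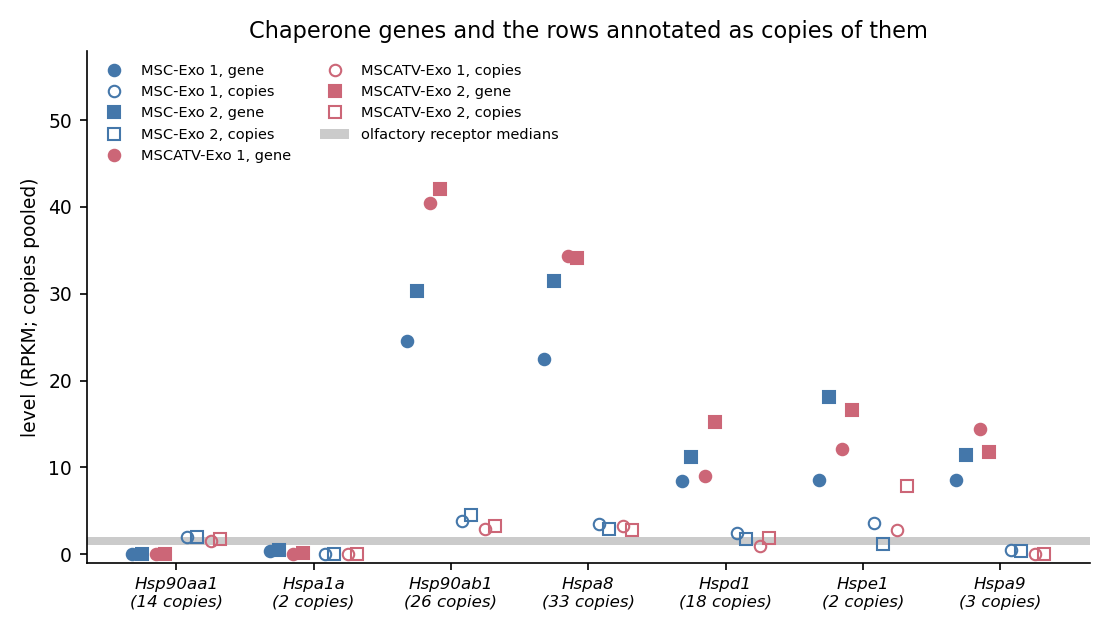
Level in RPKM (linear axis) of chaperone genes (filled symbols) and of all rows described as copies of each, pooled over their length (open symbols), in the 4 libraries. Colours and shapes mark group and replicate, and the grey band marks the olfactory receptor medians. Copies of Hsp90ab1 and Hspa8 lie between 2.72 and 4.53 RPKM, while Hsp90aa1 and the 2 Hspa1a copies lie at 0.

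Genes of the wider chaperone network had values on both sides of 0. Of 91 further genes in 9 lists, 90 were found and 87 tested, and 49 had a positive and 38 a negative log2 fold change, with a median of 0.06. With library-total scaling 41 of the 87 were positive and the median was -0.03. By edgeR 0 of the 87 passed in either direction, and DESeq2 called none. Before adjustment 3 (Htra2, Lonp1 and Hsf4) had an edgeR p under 0.05, a share near the 3.69% of all genes. Of the 33 genes that the naming rule took from these lists, 12 had a log2 fold change whose sign depended on which library was left out.

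Among partners of HSP70, the 18 HSP40 genes encode J proteins, some of which hand clients to HSP70. They had 12 positive values and a median of 0.16. Dnajb1, the main cytosolic J protein of the stress response, had 128 and 120 counts in the DMSO libraries and 142 and 143 in the ATV libraries (0.20 ± 0.37, SE), and Dnajc8 was the most abundant at 13.03 RPKM (0.30 ± 0.46). Dnajb6, which keeps aggregation-prone proteins soluble, was at -0.43 ± 0.37. The 7 tested relatives of HSP70 and HSP110 had a median of 0.01. Hsph1, the inducible HSP110, had 162 and 131 against 158 and 137 counts (0.01 ± 0.36), and Hspa2, best known from the testis, had 61 and 105 against 138 and 128 counts (0.67 ± 0.45).

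Among partners of HSP90, Cdc37, which brings kinases to HSP90, averaged 21.3 ± 5.72 CPM in the DMSO libraries and 39.6 ± 16.7 in the ATV libraries (SD, n = 2; log2 fold change 0.89 ± 0.40, SE; edgeR p before adjustment 0.0509). Its counts of 96 and 139 against 281 and 156 did not overlap, and without MSCATV-Exo replicate 1 the value was 0.38. Ptges3, which encodes the co-chaperone p23, was at 0.06 ± 0.41, and Bag1, a nucleotide exchange factor of HSP70, at -0.13 ± 0.45. The 20 tested co-chaperone genes had 11 positive values and a median of 0.07. Trap1, the mitochondrial HSP90, had 89 and 96 against 86 and 136 counts (0.25 ± 0.45, SE), and its value was -0.09 without MSCATV-Exo replicate 2.

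Genes of the cytosolic chaperonin CCT and of prefoldin, which fold actin and tubulin, split evenly, with 7 of 14 positive and a median of -0.02. Cct2 had 108 and 105 counts in the DMSO libraries and 163 and 154 in the ATV libraries (0.57 ± 0.37, SE), while Cct5 had 197 and 139 against 137 and 100 (-0.50 ± 0.39), although both encode subunits of the same ring. Pfdn1, a prefoldin subunit, had 145 and 136 against 118 and 93 (-0.42 ± 0.40).

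The mitochondrial list of import motor, co-chaperone and protease genes had 9 of 14 tested members with positive values and a median of 0.42. Positive values made up 49.4% of all genes tested and 64.6% of the abundant coding genes. The median level of this list was 4.53 to 5.87 RPKM in the 4 libraries, below the 9.22 RPKM that defined those abundant genes. Htra2, a protease of the intermembrane space, had 25 and 75 counts in the DMSO libraries and 141 and 138 in the ATV libraries, or 9.10 ± 6.50 against 25.2 ± 0.849 CPM (SD, n = 2; log2 fold change 1.47 ± 0.56, SE; edgeR p before adjustment 0.0253). Its value was 0.87 without MSC-Exo replicate 1 and 2.48 without MSC-Exo replicate 2. Lonp1, the main protease of the matrix, had 133 and 170 against 189 and 401 counts (0.95 ± 0.38, edgeR p before adjustment 0.0328), and its value without MSCATV-Exo replicate 2 was the lowest of the 4 fits with a library left out, at 0.34. Pam16, part of the import motor that mortalin serves, had 30 and 20 against 27 and 20 counts (-0.09 ± 1.05).

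Small heat shock proteins had 3 of 8 positive values and a median of -0.28. Hspb2 had 134 and 28 counts in the DMSO libraries and 47 and 74 in the ATV libraries, and Cryab, which encodes alpha-B crystallin, had 87 and 20 against 37 and 26. MSC-Exo replicate 1 was the highest library for both, and without it their values were 1.08 and 0.63 in place of -0.42 and -0.76. Hspb8, with 21 and 75 against 16 and 19 counts, was highest in MSC-Exo replicate 2 (-1.46 ± 0.94, SE), and without that library its value was -0.26. Hspb7 had 66 and 52 against 91 and 81 counts, higher in the ATV libraries without overlap (0.54 ± 0.53, SE). Hspb9 had 26 and 52 against 51 and 20 counts, and Cryaa, the lens alpha-A crystallin gene, had 65 and 55 against 101 and 44, both with overlap. The small heat shock protein genes thus shared no order of the libraries.

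Regulators of the heat shock response had values in both directions. Hsf1, the transcription factor that switches on heat shock genes, had 73 and 74 counts in the DMSO libraries and 107 and 168 in the ATV libraries (0.89 ± 0.44, SE; edgeR p before adjustment 0.0705). Hsf4, best known from the lens, had 27 and 55 against 107 and 111 counts (1.40 ± 0.56, edgeR p before adjustment 0.0311), and Hsbp1, a small protein that binds HSF1, had 151 and 123 against 83 and 104 (-0.56 ± 0.41). Of 12 tested heat-inducible genes 6 were positive and 6 negative, with a median of -0.02. Cacybp, which encodes a protein that binds S100 proteins and ubiquitin ligases, had 70 and 115 against 63 and 18 counts (-1.19 ± 0.69, SE). Its value was -0.54 without MSCATV-Exo replicate 2, the low library, and -2.38 when the other ATV library was left out.

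**Figure D5:**
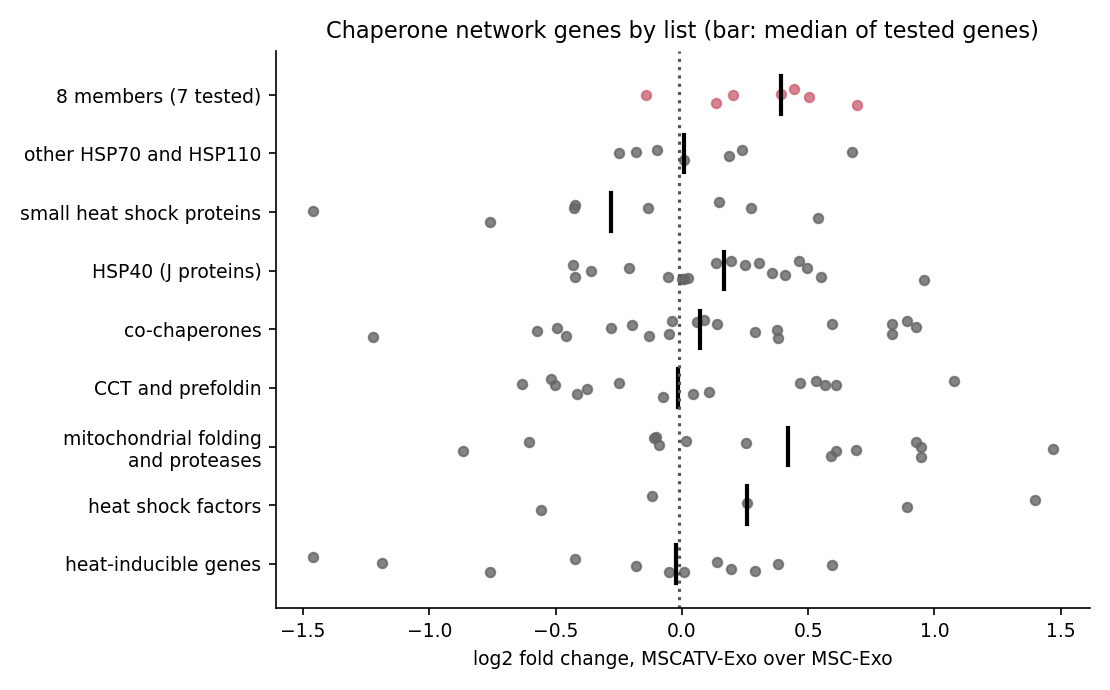
Log2 fold change of MSCATV-Exo over MSC-Exo for each tested gene (points, spread vertically only for legibility) of the 8 chaperone genes and of 8 lists of related genes, with a bar at each median and a dotted line at the median of all genes tested (-0.01). The bar stands at 0.39 for the chaperone genes, 0.42 for the mitochondrial list and -0.28 for small heat shock proteins.

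The profiles of 3 genes were nearest to that of Hsp90ab1 over the 4 libraries, by the Euclidean distance of centred log2 CPM among 345 protein-coding genes with a mean of at least 20 RPKM. Pabpc1, which encodes the cytoplasmic poly(A)-binding protein, was nearest at a distance of 0.10, with 307 and 392 CPM in the DMSO libraries and 531 and 521 in the ATV libraries. Akr1a1, an aldehyde reductase gene, was at 0.13 with 28.8 and 31.95 against 49.97 and 46.9 CPM. Sh3bgrl was at 0.15 with 99.4 and 135 against 182 and 165 CPM. A profile over 4 libraries gives such a likeness little precision.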

How the data were processed

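RNA of 4 exosome libraries (NEBNext Ultra, not strand-marking) was aligned with TopHat2 to rat build rn6 (Rnor_6.0), per the submitters' processing notes; the read counter, the annotation and the treatment of reads with several matches are not given in the sources used here. The authors deposited raw counts and RPKM per gene, and RPKM recomputed from the counts and lengths matched. The authors' deposited comparison table holds mean RPKM, a log2 ratio, a p-value and a q-value per gene. The test on counts was the two-sided quasi-likelihood F test of edgeR 4.0.16 (R 4.3.3), after filterByExpr and TMM scaling, with Benjamini-Hochberg adjustment over all genes tested and a threshold of 0.05; it was checked on simulated data. CPM used TMM-scaled totals. Alternatives were DESeq2 1.42.0, RLE or no factors, no count filter, a mean CPM of at least 1, the replicate block, leaving out each library, leaving out rRNA features, and limma 3.58.1 on log2(RPKM + 1) or log2(RPKM + 0.1). Named genes were the 8 members, in each list the 3 most abundant and the 2 with the smallest p at most (part of these are printed), the 3 nearest profiles and the 5 most abundant copies described as a heat shock protein; others were named after their values were seen. The members and lists were chosen with earlier results of these data known. The ncRNA tables were not used, and the reference sequences at hand were of mouse, so no sequence is printed.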

Additional observations from a re-analysis of the deposited data

How the results depend on the processing

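The number of chaperone genes past the threshold was 0 under all 13 alternatives, and Hsp90ab1, Hspa8, Hspa4, Hspa9 and Hspd1 kept a positive log2 fold change in each. Over all genes the count of 0 became 106 with DESeq2, 8 with no filter on low counts, 4 with the replicate block, and 1 to 168 with a library left out. The median log2 fold change of the 7 genes was 0.16 to 0.72 with a library left out. That of the 87 related genes, 0.06, was -0.0277 with total counts, -0.00387 and -0.00440 with limma on log2(RPKM + 0.1) and log2(RPKM + 1), and 0.0579 to 0.28 with a library left out. With a library left out Hspb1 ranged from -0.42 to 0.21, and it was positive (0.21 and 0.10) when MSC-Exo replicate 1 or MSCATV-Exo replicate 2 was the one left out. Hspe1 ranged from -0.25 (MSC-Exo replicate 1 left out) to 0.85. The cause was not tested. The median of the 7 genes was 4.502, 10.1, 13.6 and 9.16 times the olfactory receptor median in the 4 libraries, 9.34 on average, and on average 3.22 times the protein-coding median. Replicate numbers name no shared culture or day. Over all genes tested, the difference between replicates 1 and 2 of one group was uncorrelated with that of the other (r = -0.00052). A value over all genes cannot show whether a shared factor acted on some of them, and this was not tested. The replicate block left the median of the 7 at 0.37. Low counts limit Hspe1 most.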
